A study of Mus musculus with 8 samples.

Results

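The p200 genes and Aim2 were followed in 8 Lewis lung carcinoma (LLC) tumors. The genes were chosen by symbol: Ifi203, Ifi204, Ifi205, Ifi207, Ifi209, Ifi211, Mnda, Mndal and Aim2. Of these 9 symbols, 8 have a row among the 55487 genes of the count table. Mnda has no gene of its own in GENCODE M21, the annotation whose identifiers the table uses, and RefSeq lists that name as a synonym of Ifi211. LLC is a mouse lung cancer line, and here it was grown under the skin of female C57BL/6J mice and sampled at day 12. The cancer cells were wild-type in 4 tumors and labelled Ago2 knock-out (ΔAgo2) in the other 4, with 1 mouse per tumor. The ΔAgo2 line is a single clone made with a lentiviral CRISPR guide against Ago2, the protein that loads small RNAs and slices matching transcripts. The host cells of all 8 tumors keep Ago2. The genotype therefore cannot be told apart from other features of that clone.

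The p200 proteins carry a HIN domain, which binds double-stranded DNA, and most also carry a pyrin domain, which binds other pyrin domains. Type I interferon (IFN) raises many of their genes. Ifi204 is the mouse gene closest in role to human IFI16, a nuclear DNA sensor that can act through STING. Aim2 senses DNA in the cytosol, and it then joins the adaptor Pycard (ASC) and Casp1 in an inflammasome that matures Il1b and Il18. Myeloid cells are rich in several p200 transcripts, and these are bulk tumors. Fewer cells of a type and less RNA per cell cannot be told apart in them.

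The genes were chosen by symbol as an IFN-inducible cluster, so an IFN element in their promoters is not independent of that choice. RefSeq windows (GRCm38.p6) that run from 250 bases before to 50 after a gene's start were searched on both strands for GAAANNGAAA, the core of the IFN-stimulated response element. A window was given for 7 of the genes, all but Ifi204, and 5 of these 7 hold the core, as do 3.99% of all 27025 genes with a window. The sequences that follow are shown because they are the letters these 5 genes have in common. Each is the 60 bases around the core on the gene's own strand, 5′ to 3′, with the core in capitals.
Ifi203, chr1:173942493-173942552, minus strand: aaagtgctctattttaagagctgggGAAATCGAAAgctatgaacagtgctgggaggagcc
Mndal, chr1:173880189-173880248, minus strand: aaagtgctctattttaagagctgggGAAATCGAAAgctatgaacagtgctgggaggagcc
Ifi211, chr1:173913049-173913108, minus strand: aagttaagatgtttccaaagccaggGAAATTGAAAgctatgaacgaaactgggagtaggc
Ifi207, chr1:173741816-173741875, minus strand: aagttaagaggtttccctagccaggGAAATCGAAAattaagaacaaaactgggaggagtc
Ifi205, chr1:174031855-174031914, minus strand: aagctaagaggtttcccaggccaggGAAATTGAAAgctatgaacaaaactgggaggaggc
The Ifi203 and Mndal stretches are the same 60 letters at separate places, so the 5 genes do not count as 5 unrelated matches. The core shown begins 35, 36, 37 and 41 bases before the start of Ifi203, Mndal, Ifi211 and Ifi207, and 134 bases before that of Ifi205. The other strand holds a further core 23 to 32 bases after the start of Ifi205, and another RefSeq window of Mndal holds one 54 to 45 bases before its start. The windows of Aim2 and Ifi209, and another RefSeq window of Ifi203, do not hold these letters. The cores of 2 other elements were searched in the same way. GGAANNGAAA, the ETS-IRF core, was in 0 of the 7 and in 3.16% of all genes, and TTCNNNGAA, the core of the gamma-activated site, was in 0 of the 7 and in 9.55%. These are matches of letters, and no binding was measured.

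Library totals spanned 7903288 to 268564145 counts, and all libraries carry batch label 1. Wild-type tumor 4 was the shallowest and had 22 to 69 counts for each p200 gene and Aim2. The targeted gene did not check the labels: Ago2 stood at 153.7 ± 28.9 CPM (counts scaled to a common library total, SD, n = 4) in wild-type tumors and 239.5 ± 99.2 CPM (SD, n = 4) in ΔAgo2-labelled tumors, a log2 fold change (LFC) of 0.64 (edgeR adjusted p = 0.205). Leaving out ΔAgo2 tumor 1 gave an LFC of 0.85 (adjusted p = 0.0441). Every direction given here therefore rests on the labels. The paper measured Ago2 protein in wild-type and ΔAgo2 LLC cells by Western blot, while the transcript here also comes from host cells that keep Ago2. Of the carcinoma markers, Krt8 and Krt18 stood at 231.0 to 845.3 CPM, while Nkx2-1, a lung epithelial factor, had 0 counts in every library. Summed skeletal muscle markers stood at 238.6 to 3281 CPM in wild-type tumors, with the highest in tumor 3, and at 47.0 to 196.4 CPM in ΔAgo2-labelled tumors.

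Of the 8 genes, 8 passed the count filter and 2 rose in ΔAgo2-labelled tumors, Ifi204 and Mndal, while 0 fell. At an unadjusted p under 0.05, 6 of the 8 were higher and 0 lower, against 13.7% of all genes higher. The DESeq2 Wald test, run without that count filter, called 5 of the 8 higher against 6.52% of the 17310 genes it gave an adjusted p, and limma voom with quality weights called 3 against 14.9% of all genes, with 0 of the 8 lower in either. Among all 16061 genes tested, 1.36% were called higher by edgeR. The groups did not overlap, with ΔAgo2-labelled tumors higher, in 3 of the 8 genes (Ifi204, Mndal and Ifi211) and in 8.05% of all genes. The LFC was above 0 in 8 of the 8, with a median of 1.32, while over all genes tested it was above 0 in 52.5% with a median of 0.04. The calls depended on single libraries, for these genes and for all genes. Of the 8 genes, 0 passed without wild-type tumor 2 or without ΔAgo2 tumor 2, 3 or 4, and 1 passed without wild-type tumor 4. Over all genes, 219 were called higher with every tumor kept. Without wild-type tumor 2 or ΔAgo2 tumor 2, 3 or 4 there were 26, 42, 51 and 20, and without wild-type tumor 4 there were 77. More of the 8 passed without wild-type tumor 1, with 4, and without ΔAgo2 tumor 1, with 5, where 255 and 979 of all genes were called higher.

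**Figure D1:**
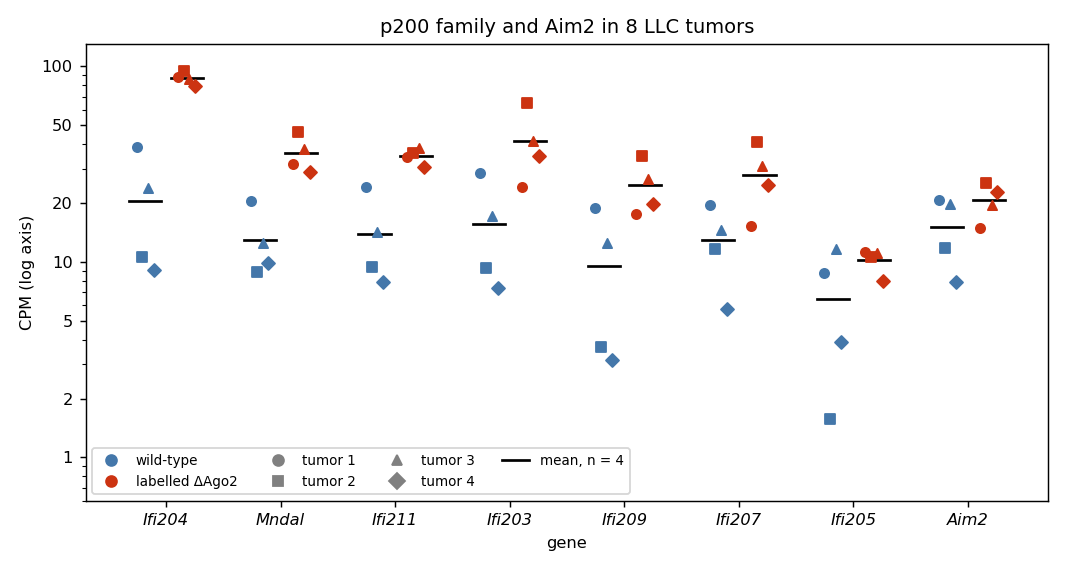
CPM of each gene on a log axis in the 4 wild-type tumors (blue) and the 4 labelled ΔAgo2 (red), with 1 symbol per tumor number and a bar at the mean of each group. Ifi204, Mndal and Ifi211 have no overlap between groups, and wild-type tumor 2 or 4 holds the lowest value of their group in each of the 8 genes.

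Ifi204 (ENSMUSG00000073489.6) had the largest difference of the 8. Its level was 38.8, 10.5, 23.8 and 9.03 CPM across wild-type tumors 1 to 4 and 88.5, 94.9, 85.6 and 79.0 CPM in ΔAgo2-labelled tumors 1 to 4. The ΔAgo2-labelled tumors lay close together, with the highest at 1.20 times the lowest, while the wild-type tumors spread 4.30-fold. Every ΔAgo2-labelled tumor was above every wild-type tumor. The means were 20.5 ± 13.9 CPM and 87.0 ± 6.60 CPM (SD, n = 4 each), or an LFC of 2.07 ± 0.41 (standard error), with a 95% interval of 1.16 to 2.97 (quasi-likelihood test of edgeR, Benjamini-Hochberg adjusted p = 0.0266). The adjusted p was 0.0873 without wild-type tumor 2, and 0.0721, 0.0654 and 0.0685 without ΔAgo2 tumors 2, 3 and 4. The LFC stayed between 1.84 and 2.58 when any library was left out.

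Mndal (ENSMUSG00000090272.8), which encodes another nuclear p200 protein, stood at 20.6, 8.92, 12.5 and 9.89 CPM across wild-type tumors 1 to 4. It stood at 31.8, 46.2, 37.8 and 28.9 CPM in ΔAgo2-labelled tumors 1 to 4. The groups did not overlap, and wild-type tumor 1 was nearest to the other group. The means were 13.0 ± 5.29 CPM and 36.2 ± 7.65 CPM (SD, n = 4 each). The LFC was 1.47 ± 0.29 (standard error), with a 95% interval of 0.82 to 2.12 (adjusted p = 0.0276). The adjusted p rose to 0.0951 without wild-type tumor 2, to 0.0670 without wild-type tumor 4, and to 0.0929, 0.0742 and 0.0612 without ΔAgo2 tumors 2, 3 and 4.

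Ifi211 stood at 24.0, 9.39, 14.3 and 7.88 CPM across wild-type tumors 1 to 4. It stood at 34.5, 36.1, 38.2 and 30.5 CPM in ΔAgo2-labelled tumors 1 to 4. The groups did not overlap, but the gene missed the threshold at an LFC of 1.31 ± 0.32 (standard error, adjusted p = 0.0526). The gene passed without wild-type tumor 1 (LFC 1.72, adjusted p = 0.0138) and without ΔAgo2 tumor 1 (1.30, adjusted p = 0.0463). Reads of this gene are the hardest to place of the 8. Only 43.1% of the 100-base windows of its transcripts, the length of a read, occur in no other annotated gene. It shares 628 of its 1686 windows with Ifi205 and 331 with Ifi204.

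**Figure D2:**
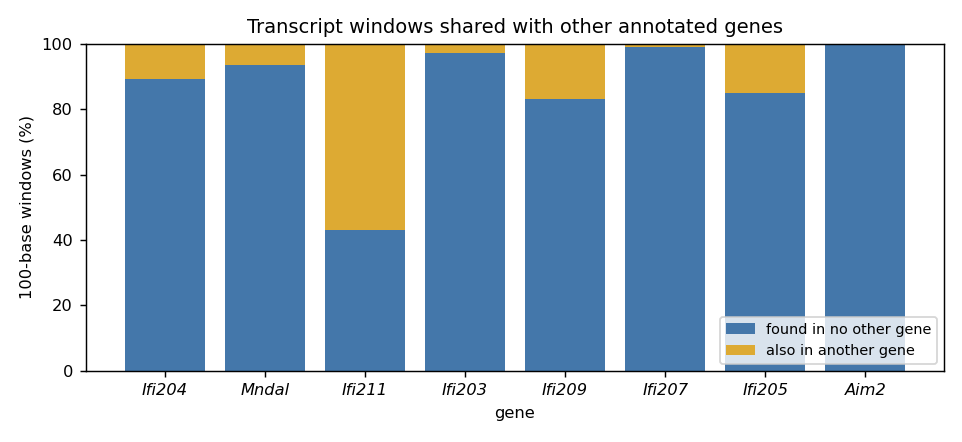
Share of the 100-base windows of each gene's annotated transcripts that are found in no other gene (blue) or also in another gene (yellow), on an axis from 0 to 100%. Ifi211 stands lowest at 43.1%, and Aim2 highest at 100%.

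Ifi203, Ifi209 and Ifi207 had similar mean differences but groups that overlapped. Ifi203 stood at 28.4, 9.25, 17.2 and 7.31 CPM across wild-type tumors 1 to 4 and at 24.2, 65.0, 41.5 and 34.7 CPM in ΔAgo2-labelled tumors 1 to 4. The overlap came from ΔAgo2 tumor 1, which was below wild-type tumor 1. Its LFC was 1.40 ± 0.43 (standard error, adjusted p = 0.0916), and it passed without wild-type tumor 1 (1.87, adjusted p = 0.0367) and without ΔAgo2 tumor 1 (1.57, adjusted p = 0.0490). Ifi209, also known as Pyhin1, stood at 18.8, 3.67, 12.5 and 3.15 CPM across the wild-type tumors and at 17.6, 34.9, 26.4 and 19.7 CPM in ΔAgo2-labelled tumors. Here too ΔAgo2 tumor 1 was below wild-type tumor 1, and the LFC was 1.34 ± 0.51 (standard error, adjusted p = 0.135). Ifi207 stood at 19.6, 11.6, 14.6 and 5.73 CPM across the wild-type tumors and at 15.3, 40.8, 31.0 and 24.7 CPM in ΔAgo2-labelled tumors. The same pair of tumors overlapped, and the LFC was 1.10 ± 0.38 (standard error, adjusted p = 0.112), or 1.29 (adjusted p = 0.0493) without ΔAgo2 tumor 1.

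Ifi205 and Aim2 had the smallest differences of the 8, and the 95% interval of each included 0. Ifi205 stood at 8.79, 1.57, 11.6 and 3.87 CPM across wild-type tumors 1 to 4 and at 11.2, 10.6, 11.1 and 7.95 CPM in ΔAgo2-labelled tumors 1 to 4. Wild-type tumor 3 was the highest of the 8 tumors, and the LFC was 0.63, with an interval of -0.44 to 1.70 (adjusted p = 0.410). It was 0.31 without wild-type tumor 2 and 1.07 without wild-type tumor 3. Aim2, the DNA sensor of the inflammasome, stood at 20.7, 11.8, 19.7 and 7.88 CPM across the wild-type tumors and at 14.98, 25.3, 19.5 and 22.7 CPM in ΔAgo2-labelled tumors. The groups overlapped through wild-type tumors 1 and 3, and the LFC was 0.44, with an interval of -0.25 to 1.13 (adjusted p = 0.374), and it was 0.24 without wild-type tumor 4. An increase of the size measured for Ifi204 lies outside the Aim2 interval, while an unchanged level lies inside it. The difference between these genes was not tested.

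Levels of different genes were compared per length, in the deposited TPM (transcripts scaled by gene length and to a common total). The 8 genes together summed to 152.1, 57.7, 106.3 and 33.3 TPM in wild-type tumors 1 to 4 and to 160.1, 369.3, 273.5 and 250.1 TPM in ΔAgo2-labelled tumors 1 to 4. In wild-type tumors the order by mean TPM was Ifi211, Ifi204, Aim2, Ifi207, Mndal, Ifi209, Ifi203 and Ifi205, from 21.3 ± 12.7 to 4.24 ± 3.32 TPM (SD, n = 4). No neighbours in that order differed by more than the larger SD of the pair. In ΔAgo2-labelled tumors the order was Ifi204, Ifi211, Mndal, Ifi207, Ifi209, Ifi203, Aim2 and Ifi205, from 75.8 ± 17.6 to 7.51 ± 1.60 TPM (SD, n = 4). Only the steps from Ifi211 to Mndal and from Aim2 to Ifi205 were larger than that SD.

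The make-up of the sum differed between genotypes, which is given as a description since it was noticed in these values. Ifi204 was 17.1% of the summed TPM in wild-type tumors, with a range of 14.6 to 20.5%, and 29.6% in ΔAgo2-labelled tumors, with a range of 26.4 to 34.1%. Aim2 was 14.2% in wild-type tumors, from 11.1 to 16.7%, and 7.07% in ΔAgo2-labelled tumors, from 5.87 to 8.83%. Shares of Ifi211 (24.9% and 23.6%), Mndal (12.2% and 11.9%) and Ifi203 (7.08% and 7.18%) were close in mean. Counts give the same picture without any scaling between libraries. There were 1.87, 0.891, 1.20 and 1.15 counts of Ifi204 per count of Aim2 across wild-type tumors 1 to 4, and 5.91, 3.76, 4.39 and 3.47 in ΔAgo2-labelled tumors 1 to 4.

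**Figure D3:**
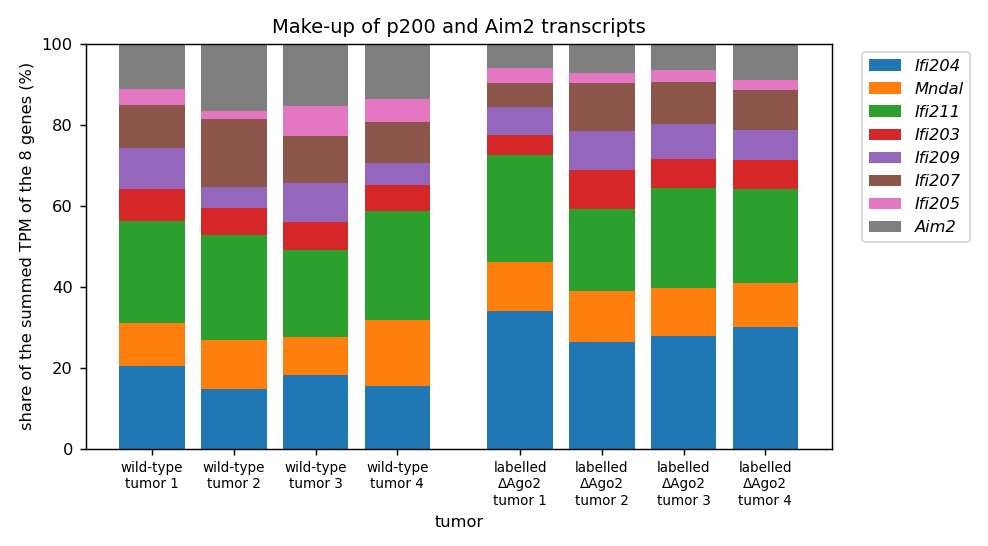
Share of each gene in the summed TPM of the 8 genes, in percent, with 1 bar per tumor. The Ifi204 part spans 14.6 to 20.5% in wild-type tumors and 26.4 to 34.1% in ΔAgo2-labelled tumors, and the Aim2 part spans 11.1 to 16.7% and 5.87 to 8.83%.

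The base composition of the genes moved with these results. GC content was 36.1 to 43.4% in the 8 genes, against a median of 49.8% over all genes tested. In the 945 tested genes under 40% GC the median LFC was 0.75, and in the 2283 genes from 40 to 44% it was 0.53. Of these genes, 2.12% and 2.67% were called higher. After the trend on GC content was removed from each library, the median of the 8 was 0.75, the median over all genes 0.07, and 1.82% of all genes were called higher. Ifi204 then kept its call, at 1.60 (adjusted p = 0.0145), and Mndal lost it, at 0.79 (adjusted p = 0.0878). Ifi211, Ifi209, Ifi207 and Ifi203 stood at 0.84, 0.79, 0.70 and 0.69, while Aim2 and Ifi205 stood at 0.02 and 0.01. A technical trend and a real change that follows GC content cannot be told apart by this correction.

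**Figure D4:**
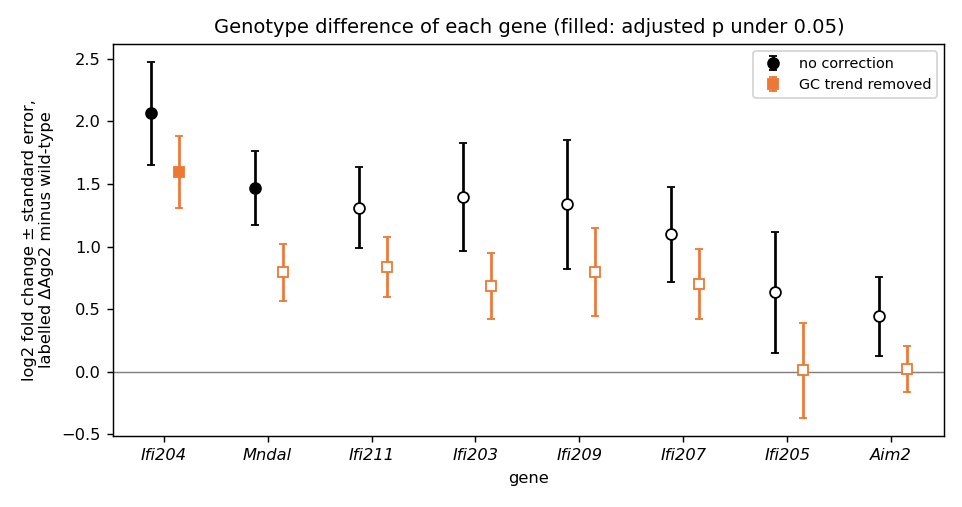
LFC (log2 fold change, labelled ΔAgo2 minus wild-type) of each gene with its standard error, without correction (black) and with each library's GC trend removed (orange), with filled symbols for an adjusted p under 0.05. With the trend removed, Ifi204 stands at 1.60 and is the only filled symbol, and Aim2 and Ifi205 stand at 0.02 and 0.01.

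All 8 genes lie in 1 cluster on chromosome 1, from 173350879 to 174031810 in GRCm38, a span of 680932 bp that holds 22 annotated genes. Aim2 is at the proximal end, on the plus strand, and Ifi205 at the distal end, on the minus strand. Ifi204 lies at 173747293 to 173766943. The annotated span of Mndal, 173849126 to 173942491, takes in the whole of Ifi211, with 0 shared exonic bases, and most of Ifi203, with 37. Cadm3 lies across the start of Aim2 on the other strand and also shares 0 exonic bases with it. The LFC of Cadm3, a cell adhesion gene, was -1.17 (adjusted p = 0.111).

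Of the 14 other genes in the span, 8 were tested and 0 were called by edgeR. These include 6 further p200 genes, of which 6 had an LFC above 0 with a median of 1.33. At an unadjusted p under 0.05, 5 of the 6 were higher, against 13.7% of all genes. DESeq2 and limma voom called 2 each, against 2265 of 17310 and 4476 of 16061 of all genes in either direction. They were lower in level than most of the 8 genes, with Ifi213 at 2.23 ± 1.54 CPM in wild-type tumors and 6.997 ± 3.12 CPM in ΔAgo2-labelled tumors (SD, n = 4 each). Its LFC was 1.59 (adjusted p = 0.0904). Ifi203-ps, Ifi202b, Ifi206, Ifi208 and Ifi214 stood at 2.01, 2.43, 0.91, 1.01 and 1.07. Of these, Ifi203-ps is annotated as a pseudogene. Ifi203 has 121 of its 100-base windows in common with Ifi203-ps, and Ifi209 has 598 in common with Ifi214. Placement of reads between these genes was not tested. Ifi203-ps, Ifi202b and Ifi214 averaged only 0.267, 0.241 and 0.153 CPM in wild-type tumors, where 1 count in tumor 4 is 0.143 CPM. Within 500 kb on either side lie 39 genes, of which 33 had 0 counts in every library and 2 were tested, both on the proximal side. The nearest, the chemokine scavenger Ackr1, had an LFC of -0.44 (adjusted p = 0.640). On the distal side, where olfactory receptor genes lie, none was tested.

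**Figure D5:**
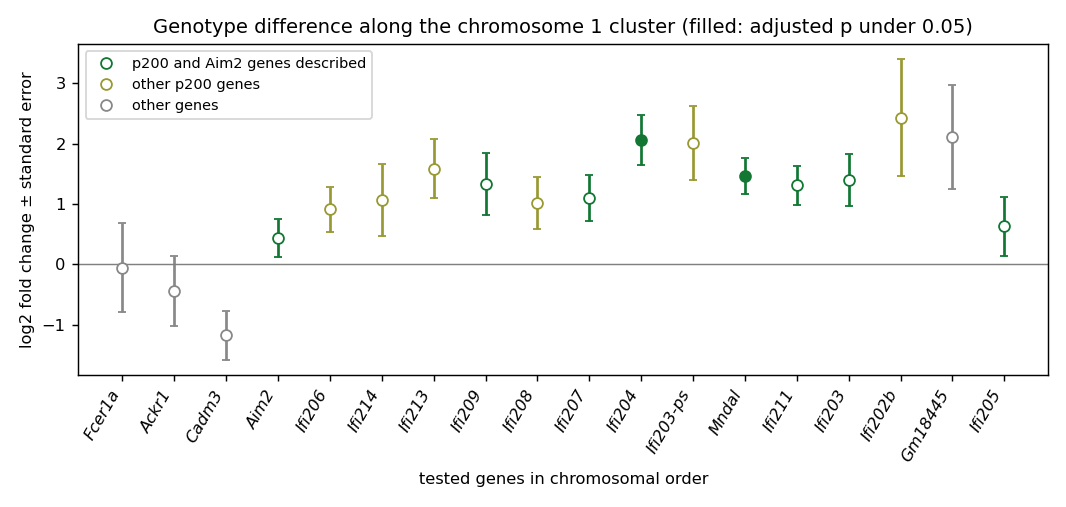
Log2 fold change with its standard error for each tested gene in chromosomal order, from the proximal side (left) to the distal side (right), with p200 genes and Aim2 in green, other p200 genes in olive and other genes in grey. Ifi204 and Mndal are filled, for an adjusted p under 0.05, and the genes left of Aim2 lie below 0, from -1.17 to -0.05.

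Genes of inflammasomes and cell death, not all of them partners of Aim2, differed among themselves. Of 17 such genes tested, called inflammasome partners here, 2 rose and 0 fell, with a median LFC of 0.18. Among all genes tested, 1.36% were called higher. At an unadjusted p under 0.05 in edgeR, 4 of the 17 were higher and 0 lower, against 13.7% of all genes higher. DESeq2 called 4 and limma voom 3, against 2265 of 17310 and 4476 of 16061 of all genes in either direction. Nek7, a kinase that the NLRP3 inflammasome needs, stood at 73.5, 42.4, 78.0 and 34.8 CPM across the wild-type tumors and at 121.4, 166.9, 125.0 and 179.8 CPM in ΔAgo2-labelled tumors. Its LFC was 1.37 (adjusted p = 0.0328). Zbp1, a sensor of Z-form nucleic acid that is itself induced by IFN, stood at 34.0, 25.7, 23.3 and 27.4 CPM and at 104.7, 58.0, 65.6 and 46.9 CPM, for an LFC of 1.32 (adjusted p = 0.0278). The groups of Nek7 and Zbp1 did not overlap, with ΔAgo2-labelled tumors higher, as in 8.05% of all genes tested. The count of 2 fell to 0 without wild-type tumor 2, wild-type tumor 4, ΔAgo2 tumor 2 or ΔAgo2 tumor 3, and to 1 without ΔAgo2 tumor 4. It rose to 4 without wild-type tumor 1.

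The parts of the AIM2 inflammasome itself did not pass the adjusted threshold in edgeR. Casp1, the protease of the complex, stood at 12.3, 3.58, 8.24 and 4.30 CPM across the wild-type tumors and at 20.2, 15.4, 15.5 and 14.4 CPM in ΔAgo2-labelled tumors. The groups did not overlap, as in 8.05% of all genes with ΔAgo2-labelled tumors higher, at an LFC of 1.18 (adjusted p = 0.0908). The adaptor Pycard had an LFC of 0.51 (adjusted p = 0.306) and the substrate Il18 of 0.69 (adjusted p = 0.361). Il1b, the other cytokine, and Gsdmd, the pore protein, had values of 0.13 (adjusted p = 0.830) and 0.02 (adjusted p = 0.971).

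Upstream genes were also examined. Of 10 tested genes of cytosolic DNA sensing, 0 were called by edgeR, 0 by DESeq2 and 1 by limma voom, 3 were higher at an unadjusted p under 0.05, and the median LFC was 0.20. Over all genes, limma voom called 4476 of 16061 in either direction, and 13.7% were higher at that unadjusted p in edgeR. Cgas, which makes the messenger that STING binds, stood at 1.64 ± 0.340 CPM and 3.11 ± 1.05 CPM (SD, n = 4 each, adjusted p = 0.130). The groups of Cgas, Tbk1 and Rnaseh2b did not overlap, with ΔAgo2-labelled tumors higher, as in 8.05% of all genes tested. Tmem173, which encodes STING, stood at 124.0 ± 16.5 CPM and 97.5 ± 9.27 CPM (SD, n = 4 each), with groups that did not overlap in the other direction (adjusted p = 0.233). Of 15 tested genes of IFN signaling and p200 regulation, 0 were called by edgeR, 0 by DESeq2 and 5 by limma voom, and 3 were higher at an unadjusted p under 0.05, with a median LFC of 0.32. Among them Irf7, which carries the IFN response, had an LFC of 0.63 (adjusted p = 0.253). Irf8 and Spi1, myeloid factors, had values of -0.13 (adjusted p = 0.760) and -0.26 (adjusted p = 0.605).

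Markers of cells that carry p200 transcripts were set beside these levels. Of 15 macrophage and monocyte markers, 0 were called and 7 had an LFC above 0, with a median of -0.04. Their summed level was 2208 to 2713 CPM in wild-type tumors and 1926 to 4034 CPM in ΔAgo2-labelled tumors. Of 7 pan-leukocyte markers, 0 were called and 3 were above 0, with sums of 534.0 to 1040 CPM and 490.2 to 944.3 CPM. ΔAgo2 tumor 1 held the highest macrophage sum of the 8 tumors, and it was the lowest of its group for Ifi203, Ifi207, Ifi209 and Aim2. For Ifi205 it was the highest of its group, and for Ifi204, Ifi211 and Mndal the lowest was ΔAgo2 tumor 4. Of 8 dendritic cell markers 2 were above 0, of 9 T cell markers 7, of 6 NK cell markers 4, of 6 tested neutrophil markers 3, and of 3 tested B cell markers 2, with 0 called by edgeR in each list. Fibroblast markers summed to 1012 to 2469 CPM in wild-type tumors and 806.1 to 1010 CPM in ΔAgo2-labelled tumors, with 0 of 6 called. Of 5 tested carcinoma markers 0 were called and 4 were above 0, with sums of 500.02 to 1259 CPM and 716.3 to 1248 CPM. Of 7 muscle markers 0 were called and 0 were above 0. The endothelial marker Vwf fell, with an LFC of -1.09 (adjusted p = 0.0466), as 1 of 6 in its list. The keratin Krt10 rose, with an LFC of 2.06 (adjusted p = 0.0460), as 1 of 6 skin markers, whose sum was 10.8 to 560.6 CPM and 445.2 to 862.6 CPM. The Vwf list lost its call without wild-type tumor 2, 3 or 4 or without ΔAgo2 tumor 2, 3 or 4, and the skin list without wild-type tumor 2 or 4 or without ΔAgo2 tumor 2, 3 or 4, each leaving 0. Without adjustment, a p under 0.05 was reached by 4 macrophage markers (2 higher, 2 lower), 2 pan-leukocyte markers (1 higher, 1 lower), 2 dendritic cell markers (both lower), 4 fibroblast markers (1 higher, 3 lower), 7 muscle markers (all lower), 2 carcinoma markers and 1 NK cell marker (all higher), and by 0 neutrophil, T cell or B cell markers. DESeq2 and limma voom called 2 and 4 of the macrophage markers. Over all genes, in either direction, they called 2265 of 17310 and 4476 of 16061, and 4281 of 16061 reached the unadjusted p in edgeR. The part of cell make-up in the p200 values was not tested.

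Among all other tested genes, those most like the mean profile of the 8 across the tumors were Cd200r4, Spc25, 0610010F05Rik, Casp4 and Tmem71. Their GC content was 38.1 to 42.6%, against a median of 49.8% over all genes tested. The part of the GC trend in this likeness was not tested. Likeness is the root mean square difference of centred log2 CPM over the 8 tumors, and it was 0.140 for Cd200r4, a myeloid receptor, and 0.209 to 0.216 for the other 4. The 8 genes themselves lay 0.1999 (Ifi211) to 0.547 (Ifi205) from that mean, which holds their own values. Cd200r4 is expressed low, at 0.721 ± 0.476 CPM in wild-type tumors and 1.78 ± 0.443 CPM in ΔAgo2-labelled tumors (SD, n = 4 each). The mean profile was lowest in wild-type tumors 4 and 2, the shallowest libraries, at -1.48 and -1.33, and highest in ΔAgo2 tumor 2, at 1.06. The part of depth in this profile was not tested.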

How the data were processed

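RNA from 8 subcutaneous LLC tumors was sequenced from stranded, poly(A)-selected libraries as 100-base pairs, with a target of 50 M reads. The authors deposited raw counts per gene, and also TPM, which divide counts by gene length and scale each library to 1 total. The submitters' processing notes name STAR and mm10. The paper names featureCounts for cultured cells, which was assumed here. Strand setting and handling of reads with several matches were not given in the sources used here, so counts of near-identical genes are uncertain. Identifiers matched GENCODE M21 for 99.8% of 55487 genes.

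Counts were filtered with filterByExpr, scaled by TMM and tested with edgeR 4.0.16 (quasi-likelihood, R 4.3.3, Benjamini-Hochberg over 16061 genes, threshold 0.05). CPM uses TMM-scaled totals. DESeq2 1.42.0 and limma 3.58.1 served as alternatives, with other scalings, filters, corrections, pseudocounts and libraries left out. Trends on GC content used genes averaging 50 counts or more. The procedure was also run on simulated counts, whose main setting held no GC trend, and no result here rests on that run. Tumors with the same replicate number showed no pairing in expression, and libraries of a group differed by more than sampling noise. All p-values measure the spread between these tumors.

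Window uniqueness was computed over annotated transcripts, since no genome sequence was used here. Named genes were the p200 genes, Aim2 and Ago2, called genes of each list, fixed inflammasome and regulator genes, the nearest tested neighbours and the 5 most alike profiles. A fixed regulator gene is not reported here. Cadm3, Cgas, Tmem173, Tbk1, Rnaseh2b and the other p200 genes were named after their values were seen. Members, lists and tests were chosen with earlier results of these data known. Columns other than these 8 libraries numbered 0.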

Additional observations from a re-analysis of the deposited data

Results flagged for a closer look

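Of 68 groups of 4 tumors examined for a value far from its group, 7 held one, and chance gives about 1 in 20. No p200 gene, Aim2 or Ago2 was among them, so these are sums over lists, in CPM. The 6 other p200 genes summed to 17.6 in wild-type tumor 1, against 6.88 to 7.84 in the other wild-type tumors. Inflammasome partners summed to 548.7 in wild-type tumor 4, against 431.9 to 448.2, and to 652.0 in ΔAgo2 tumor 1, against 523.8 to 543.5. Skeletal muscle markers summed to 3281 in wild-type tumor 3, against 238.6 to 452.9. In ΔAgo2 tumor 1, dendritic cell markers summed to 22.6, against 12.1 to 13.9, T cell markers to 38.7, against 7.95 to 11.7, and B cell markers to 4.31, against 2.87 to 3.07. Of the 7 values, 4 are of ΔAgo2 tumor 1. Without that tumor the log2 fold change was 2.05 for Ifi204, 1.52 for Mndal, 1.30 for Ifi211, 1.57 for Ifi203, 1.46 for Ifi209, 1.29 for Ifi207, 0.58 for Ifi205 and 0.56 for Aim2.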

How the results depend on the processing

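Of 23 planned settings and 2 added after the data were seen, none turned the direction of any p200 gene, Aim2 or Ago2, and Ifi204 passed in 17 of the 25, Mndal in 13, Ifi211 in 7, Ifi203 in 5 and Ifi207 in 3, while Ifi205, Ifi209 and Aim2 passed in 0. The cause of each shift was not tested. Depth limits most the shallowest library, wild-type tumor 4, with 22 to 69 counts per gene.

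When single libraries were left out, calls ran from 88 to 1793 over all genes (20 to 979 higher, 68 to 814 lower) and from 0 to 5 among the 8 genes. The log2 fold change ran from 1.84 to 2.58 for Ifi204, 1.32 to 1.79 for Mndal, 1.13 to 1.72 for Ifi211, 1.08 to 1.87 for Ifi203, 0.84 to 1.37 for Ifi207, 1.07 to 1.90 for Ifi209, 0.31 to 1.07 for Ifi205, 0.24 to 0.64 for Aim2 and 0.38 to 0.85 for Ago2. List counts ran from 0 to 4 for inflammasome partners, 0 to 3 for macrophages, 0 to 2 for other p200 genes and fibroblasts, and 0 to 1 for endothelial, skin, dendritic, muscle, carcinoma and pan-leukocyte markers.

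The DESeq2 Wald test, run with its own filtering on 30344 genes with a count rather than 16061, called 2265 genes (1129 higher, 1136 lower) and 5 of the 8, adding Ifi203 at 1.40, Ifi207 at 1.10 and Ifi211 at 1.32, with 4 inflammasome partners, 2 each of the other p200, macrophage, dendritic, fibroblast, carcinoma and muscle genes, and 1 pan-leukocyte marker. Limma voom with quality weights called 4476 (2393 higher, 2083 lower), adding Ifi211 at 0.84 and Ago2 at 0.86, with 5 regulators of interferon signalling, 4 macrophage, 3 fibroblast, 2 each of the other p200, pan-leukocyte, neutrophil, dendritic, carcinoma and skin genes, and 1 each of DNA sensing, T cell and muscle genes. With no count filter 983 were called (515 higher) and 4 of the 8, adding Ifi203 at 1.44 and Ifi211 at 1.35, with 5 muscle markers and 1 each of pan-leukocyte, fibroblast and carcinoma markers. The length correction gave 1163 (525 higher, 638 lower), added Ifi211 at 1.42, and called 2 fibroblast markers and 1 each of macrophage, carcinoma and muscle markers. Under the GC correction 1 of the 8 passed, Mndal fell to 0.79, and 2 carcinoma, 1 macrophage, 1 dendritic, 1 fibroblast and 0 endothelial markers passed. Total counts left 0 endothelial markers, and upper-quartile scaling called 1 macrophage marker.

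In limma, log2(TPM + 1) gave 153 calls (77 higher, 76 lower), 1 of the 8, with Mndal at 1.64. With log2(TPM + 0.1) there were 107 (41 higher, 66 lower) and 0 of the 8, with Ifi204 at 2.54 and Mndal at 1.74. With log2(TPM + 1) and no filter there were 77 (33 higher, 44 lower) and 0 of the 8, with Ifi204 at 2.44 and Mndal at 1.64. In each of these, 1 inflammasome partner and 0 endothelial or skin markers passed.

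The 2 settings added after seeing the data differed. Without wild-type tumors 3 and 4, 134 were called (30 higher, 104 lower), 0 of the 8, with Ifi204 at 1.81 and Mndal at 1.28, and 0 inflammasome, endothelial or skin genes. Without wild-type tumor 3 and ΔAgo2 tumor 1, 3981 were called (1887 higher, 2094 lower) and 5 of the 8, with Ifi203 at 1.60, Ifi207 at 1.33 and Ifi211 at 1.29, and Ago2 at 0.83, together with 5 macrophage, 4 pan-leukocyte, 4 inflammasome, 4 DNA sensing, 3 regulator, 2 each of neutrophil, dendritic, T cell, fibroblast, muscle and skin, and 1 each of other p200 and carcinoma genes.

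With the replicate block, 70 genes passed (13 higher, 57 lower), 0 of the 8, with Ifi204 at 2.32 and Mndal at 1.53, and 0 inflammasome, endothelial or skin genes. The replicate block with the GC correction gave 284 (129 higher, 155 lower) and 1 of the 8, with Mndal at 0.81, and 1 each of inflammasome, regulator, macrophage, fibroblast and carcinoma genes, and 0 endothelial or skin genes. Deviations of tumors with the same number correlated at -0.24, 0.10, -0.045 and -0.29 across genes, and 0 of 4 matched their own number best. The expression values thus showed no pairing. They cannot tell whether tumors with the same number were handled together.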
